A study of Mus musculus with 12 samples.

Results

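Glutathione is the main soluble thiol of the cell, a tripeptide of glutamate, cysteine and glycine, and the genes described here encode the enzymes that build it, break it down and cycle it between its reduced and oxidised forms. The 9 genes, Gclc, Gclm, Gss, Chac1, Chac2, Ggct, Oplah, Gsr and Gpx1, were taken by symbol from the 56980 genes of the deposited matrix, each symbol matched 1 row, and all 9 passed the filter on low counts. Whole-liver RNA was sequenced from obese male mice without leptin, of the strain B6.Cg-Lepob/J (ob/ob) and the genotype Lep-/-. The mice of the low protein group (LPD) ate chow with 5% of its energy as protein, and those of the standard protein group (SPD) ate chow with 25%. Both diets were given for 3 weeks from 8 weeks of age with free access to food, and livers were taken at 11 weeks, 6 mice per diet. All mice of both groups were leptin deficient, so lean mice are not part of the comparison, which asks how protein restriction changed the liver.

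In the liver, glutathione is made in a pair of steps that both use ATP. Glutamate-cysteine ligase, with the catalytic subunit Gclc and the modifier subunit Gclm, joins glutamate to cysteine and sets the rate, and glutathione synthetase (Gss) adds glycine. Inside the cell, Chac1 and Chac2 cut glutathione into 5-oxoproline and cysteinyl-glycine, Ggct releases 5-oxoproline from other gamma-glutamyl compounds, and Oplah turns 5-oxoproline back into glutamate. Gpx1 uses reduced glutathione to remove hydrogen peroxide, and Gsr regenerates it with NADPH. Chac1 is also known as a target of ATF4, the transcription factor that answers amino acid shortage and endoplasmic reticulum stress, whereas Gclc, Gclm and Gsr are known targets of NRF2, the factor that answers oxidants.

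Of these 9 mRNAs, Chac1 and Chac2 were higher in LPD livers, Gclc and Gsr were lower, and 5 did not pass the test. The test was edgeR's quasi-likelihood F test over 13768 genes, with Benjamini-Hochberg adjustment over all of them and a call at an adjusted p under 0.05. At this threshold 20.7% of all tested genes were higher and 19.2% were lower in LPD livers, 39.9% in all, and 4 called of 9 is near that background. The sizes differed: Chac1 was 10.5-fold higher and Chac2 24.0% higher, whereas Gclc fell by 25.7% and Gsr fell by 32.9%. LPD and SPD livers did not overlap for Chac1 and Gsr, 2 of the 9, and for 19.9% of all tested genes. In 8 tested genes, or 0.0581%, the rise was at least as large as that of Chac1, which is itself 1 of the 8. Because the tissue is bulk liver, fewer cells of a type and less RNA per cell cannot be told apart in any of these values.

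**Figure D1:**
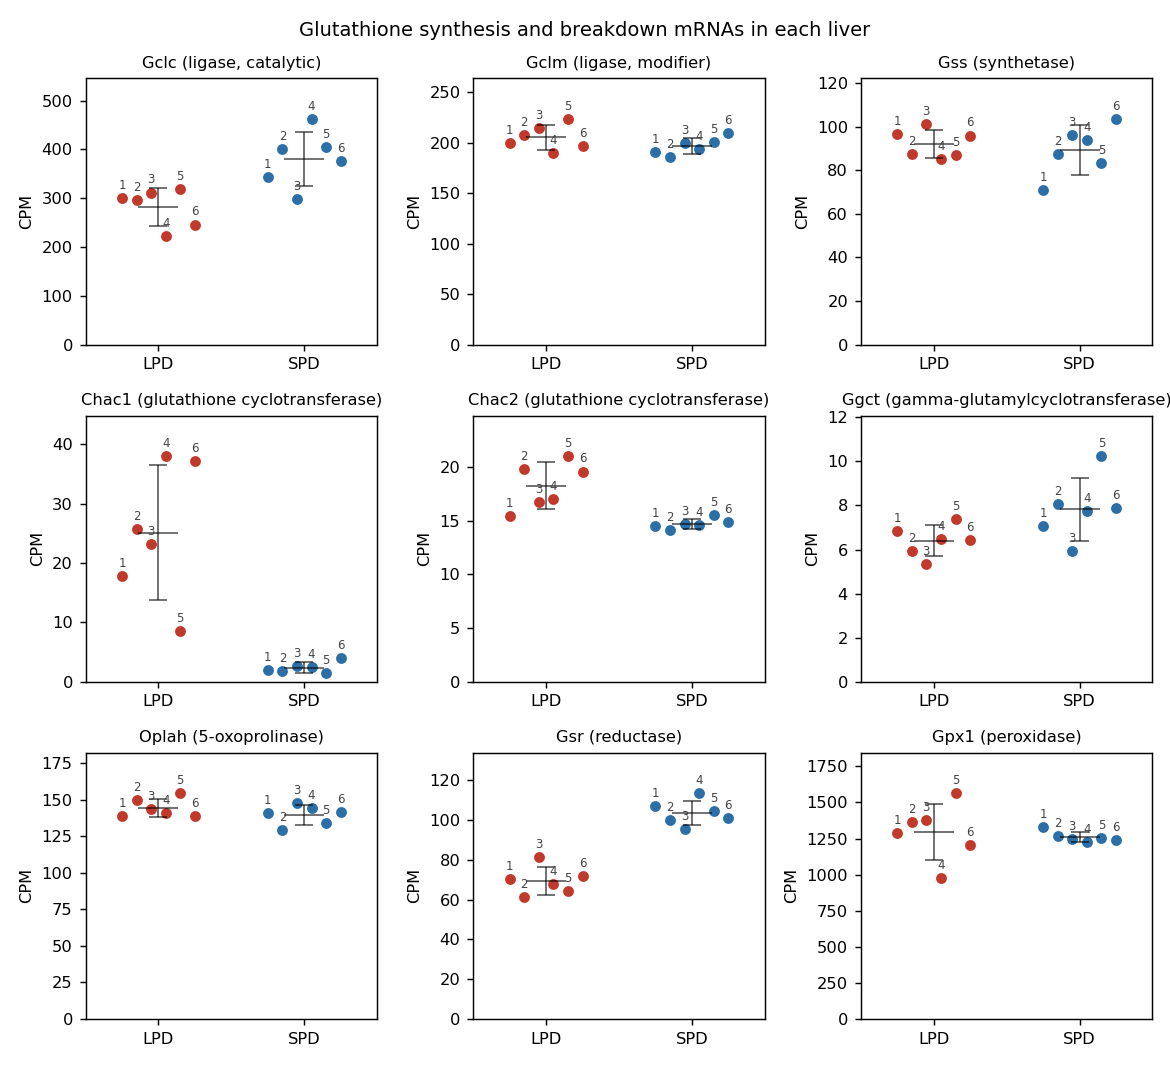
Level of each mRNA, in CPM (counts scaled to the same effective library total), in every liver, with LPD left of SPD. Numbers beside points are replicate numbers, the long dash is the mean and the bar is 1 SD (n = 6 per diet). The diets do not overlap for Chac1, where the lowest LPD liver is at 8.52 CPM and the highest SPD liver at 3.997 CPM, or for Gsr.

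Total counts per library lay between 19374676 and 23710930. On the first principal component (47.1% of the variance) LPD livers lay between 15.3 and 48.7 and SPD livers between -32.1 and -24.7. The outermost points there were LPD replicate 2 (48.7) and LPD replicate 5 (44.6), apart from the remaining 4 LPD livers. For LPD replicate 1 the treatment and description labels name the standard diet, against its title and library code. Its log2 levels correlated more closely with the other LPD livers (mean Pearson r over genes 0.984) than with SPD livers (0.975), and it counts as LPD here. Of the 6 LPD livers it was the nearest to SPD livers, by this r and on the first principal component (15.3). Library codes start with LP4 (4 livers) or LP5 (2 livers) in LPD and with SP1 (4 livers) or SP2 (2 livers) in SPD. The labels name no batch, and since the diets have no code in common, code and diet cannot be told apart. Markers of hepatocytes summed to 63392 to 86598 CPM in LPD livers and 72999 to 81706 CPM in SPD livers, and 4 of 7 were higher in LPD. Those 4 were Apoa1, Hnf4a, Serpina1a and Tat. Most of the sum was Alb, which was not called (mean 57232 CPM in LPD and 65535 CPM in SPD livers). Counts of markers may be read against the 20.7% of all tested genes that were higher and the 19.2% that were lower. Of the other cell types, 4 of 8 stellate cell markers fell (372 to 617 CPM in LPD, 537 to 724 CPM in SPD). These were Col1a1, Col3a1, Rgs5 and Pdgfrb, while Lrat, Des, Reln and Dcn were not called. Falls were also called for 2 of 6 endothelial markers (258 to 310 CPM and 305 to 339 CPM) and 1 of 5 tested cholangiocyte markers (43.2 to 117 CPM and 156 to 449 CPM). That 1 is Spp1, with a mean of 63.3 CPM in LPD and 246 CPM in SPD livers, which makes up most of the sum, and the other 4 tested were scarce and not called. Of 7 macrophage markers 1 rose and 1 fell (344 to 449 CPM in LPD and 388 to 474 CPM in SPD), and of 2 tested neutrophil markers 1 fell (1.06 to 2.40 CPM and 1.99 to 7.89 CPM). No marker passed among 3 tested lymphocyte markers (2.37 to 4.37 CPM and 2.22 to 4.34 CPM) or 5 erythroid markers (228 to 2128 CPM and 923 to 1687 CPM). The medians of the erythroid sums still differed, at 328 CPM in LPD and 1154 CPM in SPD livers. Hba-a1, Hba-a2, Hbb-bs and Hbb-bt each had 5 LPD livers below every SPD liver and 1 above. None of the marker genes was at 0 in all 12 livers, and their part in the results below was not tested.

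Of the breakdown enzymes, Chac1 changed most. Chac1 (ENSMUSG00000027313, chromosome 2, 119351229 to 119354381, plus strand, GRCm38) had 8.52 CPM in the lowest LPD liver, a median of 24.5 CPM and 38.0 CPM in the highest, against 1.48, 2.23 and 3.997 CPM in SPD livers. Every LPD liver was above every SPD liver, which was so, in the direction of a rise, for 10.2% of all tested genes. The log2 fold change was 3.39 ± 0.33 (LPD over SPD, ± SE, 95% interval 2.68 to 4.10, adjusted p = 2.39e-06 by edgeR). LPD livers also differed widely among themselves, with 4.46 times as much Chac1 in replicate 4 as in replicate 5, and their coefficient of variation was the largest of the 9 mRNAs at 45.2%, against 36.9% in SPD livers. LPD replicates 4 and 6 were highest at 38.0 and 37.2 CPM. Without LPD replicates 2 and 5 the log2 fold change was 3.61 (adjusted p = 2.21e-07), and with LPD replicate 1 counted as SPD, which put a liver of 17.9 CPM among the controls, it was 2.52 (adjusted p = 0.00365).

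The sequence around the start of Chac1 is shown beside that of its relative Chac2 because the mRNAs differed so much in response. Both are RefSeq windows on GRCm38.p6, 250 bases before to 50 bases after the start that RefSeq gives, written 5′ to 3′ along the gene. They are chr2:119350992-119351291 on the plus strand for Chac1 and chr11:30986316-30986615 on the minus strand for Chac2. For both genes the RefSeq start lies near, but not at, the GENCODE start printed in this report. Capitals mark matches to the letters searched.
Chac1: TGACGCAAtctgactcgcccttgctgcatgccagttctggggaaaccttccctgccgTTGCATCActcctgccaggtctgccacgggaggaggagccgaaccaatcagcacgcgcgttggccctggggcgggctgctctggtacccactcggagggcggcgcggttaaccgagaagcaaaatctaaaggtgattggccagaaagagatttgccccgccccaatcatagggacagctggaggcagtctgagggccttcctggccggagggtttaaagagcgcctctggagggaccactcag
Chac2: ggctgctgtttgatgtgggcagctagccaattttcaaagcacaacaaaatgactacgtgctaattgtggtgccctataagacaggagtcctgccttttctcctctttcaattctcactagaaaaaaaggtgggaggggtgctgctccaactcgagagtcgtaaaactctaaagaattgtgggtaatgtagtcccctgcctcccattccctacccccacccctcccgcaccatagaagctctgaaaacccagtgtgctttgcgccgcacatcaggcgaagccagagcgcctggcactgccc
The search covered TGATGNAA (core letters of the amino acid response element, to which ATF4 is known to bind), TGACGT (part of the cyclic AMP response element) and TGACNNNGC (core letters of the antioxidant response element, to which NRF2 is known to bind), on both strands. The Chac1 window held 1 match to TGATGNAA, on the minus strand and so read as TTGCATCA, at bases -193 to -186 from the start (chr2:119351049-119351056). Such a match was present in 3.91% of the 32544 windows of the table. The capitals TGACGCAA at bases -250 to -243 (chr2:119350992-119350999) mark letters that were added to the search after this window had been read, and 0.495% of windows held them. Their match in the Chac1 window was thus certain beforehand, and the share gives it no weight. No letters searched occurred in the Chac2 window. Windows were found for 6 of the 9 genes, Chac1, Chac2, Gclm, Gss, Ggct and Gpx1, and the table gave none for Gclc, Gsr and Oplah. TGACNNNGC was present in 12.4% of all windows, once in that of Gclm (GCACCGTCA) and at 2 places in that of Ggct, where GCGACGTCA overlaps the only TGACGT match (7.55% of windows). Windows of Gss and Gpx1 held none. That of Gpx1 (chr9:108338830-108339129) lies mostly inside the GENCODE gene, which starts at 108338903. These are matches of letters, and binding was not measured.

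Chac2 (ENSMUSG00000020309, chromosome 11, 30976707 to 30986350, minus strand), which cleaves glutathione more slowly than Chac1, rose far less. It had 15.4, 18.3 and 21.005 CPM in the lowest, median and highest LPD liver, against 14.2, 14.6 and 15.5 CPM in SPD livers. The SPD livers were close together and 5 of 6 LPD livers lay above all of them, while LPD replicate 1 fell among them. The log2 fold change was 0.31 ± 0.075 (adjusted p = 0.00418), and 0.23 without LPD replicates 2 and 5 (adjusted p = 0.0270) or 0.35 with LPD replicate 1 moved to SPD (adjusted p = 0.00207). The call was lost in the 4 libraries per diet with codes LP4 and SP1 (0.25, adjusted p = 0.0531). Asb3 lies across Chac2 on the other strand, but the annotated exons of the pair share 0 bases.

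The balance between these relatives changed with the diet. Per kilobase of gene length, LPD livers held 0.931, 1.04, 1.12, 1.79, 0.326 and 1.53 Chac1 counts for each Chac2 count in replicates 1 to 6, against 0.0777 to 0.216 in SPD livers. Chac1 was above Chac2 in 4 of 6 LPD livers and in 0 of 6 SPD livers, and LPD replicate 5 was the LPD liver nearest to the SPD range. The mean log2 ratio was -0.0085 ± 0.86 in LPD and -2.99 ± 0.50 in SPD livers (SD, n = 6 each), a difference of 2.98. An exact two-sided permutation test over all labelings of the 12 livers gave p = 0.00216, the smallest this design allows, and 0.00433 adjusted over the 4 ratios tested. The deposited lengths of both genes, 1637 and 1315 bases, equal the summed length of their GENCODE M21 exons.

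**Figure D2:**
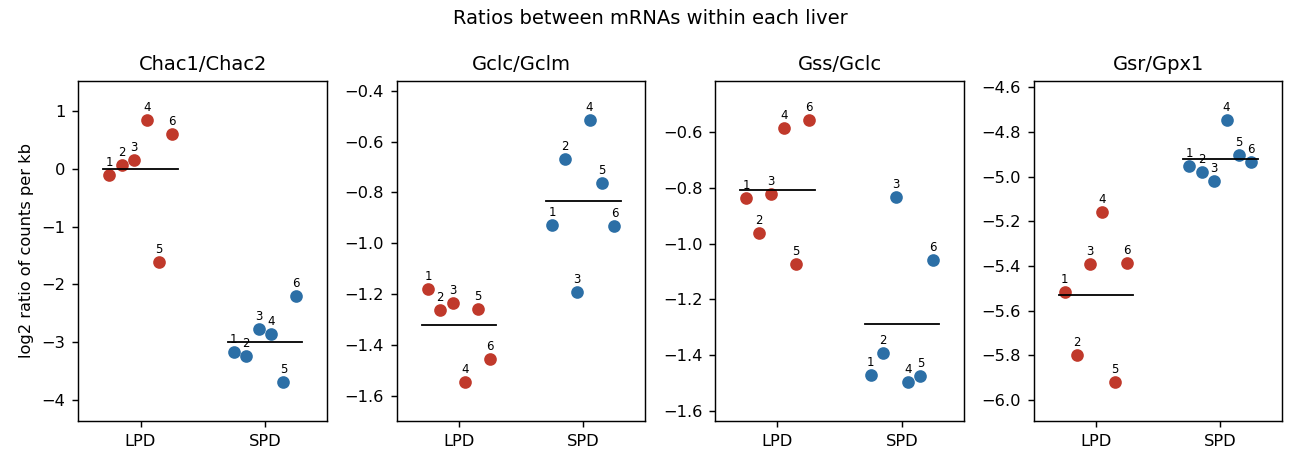
Log2 ratio of length-scaled counts between pairs of mRNAs within each liver, LPD left of SPD. Numbers are replicates and lines are means (n = 6 per diet). Chac1/Chac2 is higher and Gsr/Gpx1 lower in all 6 LPD livers than in any SPD liver, and Gclc/Gclm is below the SPD range in 5 LPD livers.

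The other breakdown enzymes did not pass the test. Ggct (chromosome 6, 54982580 to 54992950, minus strand), which acts on gamma-glutamyl amino acids, had 5.32, 6.45 and 7.37 CPM in LPD livers and 5.92, 7.83 and 10.2 CPM in SPD livers. Its log2 fold change was -0.29 ± 0.12 (95% interval -0.55 to -0.030, adjusted p = 0.0712), the diets overlapped, and 1 LPD liver lay below the SPD range. It was called by limma-voom (-0.32, adjusted p = 0.0489) and without SPD replicate 3, its lowest SPD liver (-0.36, adjusted p = 0.0236). Oplah (chromosome 15, 76296601 to 76328015, minus strand), the step after all 3 cyclotransferases, had 139, 142 and 155 CPM in LPD livers and 129, 141 and 148 CPM in SPD livers, with a log2 fold change of 0.049 ± 0.050 (95% interval -0.056 to 0.15, adjusted p = 0.458).

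Of the synthesis genes, the catalytic subunit fell and the others did not pass. Gclc (ENSMUSG00000032350, chromosome 9, 77754535 to 77794485, plus strand) had 223, 299 and 319 CPM in the lowest, median and highest LPD liver, against 299, 388 and 462 CPM in SPD livers. The ranges overlapped, with 3 of 6 LPD livers below every SPD liver. LPD replicates 4 and 6, the livers with most Chac1, had the least Gclc at 223 and 246 CPM. Replicate 4 was also the lowest LPD liver for Gclm, Gss and Gpx1. Across the LPD livers the rank correlation of Chac1 with Gclc did not pass adjustment (exact permutation test, adjusted p = 0.233 over 16 relations). The log2 fold change of Gclc was -0.43 ± 0.11 (adjusted p = 0.00486), and it was called in all 22 alternatives, with adjusted p from 5.00e-04 to 0.0483. It was -0.49 without LPD replicates 2 and 5 (adjusted p = 0.00532) and -0.40 with LPD replicate 1 moved to SPD (adjusted p = 0.0209). Gclm (chromosome 3, 122245557 to 122270732, plus strand) had 190.0, 204 and 224 CPM in LPD livers and 186, 197 and 210 CPM in SPD livers. Its log2 fold change of 0.061 ± 0.053 had a 95% interval of -0.050 to 0.17 (adjusted p = 0.377), which does not reach the estimate for Gclc (-0.43). Gss (chromosome 2, 155563181 to 155592810, minus strand) had 85.2, 91.7 and 101 CPM in LPD livers and 71.0, 90.6 and 103 CPM in SPD livers, with a log2 fold change of 0.047 ± 0.079 (95% interval -0.12 to 0.22, adjusted p = 0.677). Its exons share 395 of 5915 bases with Acss2 on the other strand, an acetyl-CoA synthetase whose mRNA was at 96.9 CPM in LPD and 488 CPM in SPD livers. The handling of strand is not given in the sources used here, and how far reads of Acss2 enter the Gss counts was not tested.

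Within livers, Gclc was lower relative to Gclm in LPD. The Gclc/Gclm ratio of length-scaled levels averaged -1.32 ± 0.14 in LPD and -0.83 ± 0.24 in SPD livers on the log2 scale, and 5 of 6 LPD livers lay below all SPD livers (difference -0.49, exact permutation p = 0.00433, adjusted p = 0.00577). SPD replicate 3, with the least Gclc of the SPD livers, overlapped the LPD range. The Gss/Gclc ratio averaged -0.81 ± 0.20 in LPD and -1.29 ± 0.28 in SPD livers (difference 0.48, exact permutation p = 0.0173, also after adjustment), with 3 of 6 LPD livers above the SPD range. These differences between diets do not depend on the gene length used or on scaling between libraries. Both ratios contain Gclc, and neither Gclm nor Gss was called, so they are not separate results from the fall of Gclc. Any reads of Acss2 in the Gss counts would not cancel in Gss/Gclc, and their part was not tested.

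Of the redox cycle genes, the reductase fell and the peroxidase did not pass. Gsr (ENSMUSG00000031584, chromosome 8, 33652523 to 33698163, plus strand) had 61.1, 69.1 and 81.6 CPM in LPD livers, against 95.7, 103 and 113 CPM in SPD livers. The diets did not overlap, as was the case in the direction of a fall for 9.73% of all tested genes. The log2 fold change was -0.58 ± 0.067 (adjusted p = 1.11e-05), and -0.51 (adjusted p = 4.71e-05) without LPD replicates 2 and 5, the livers with the least Gsr. With LPD replicate 1 counted as SPD it was also -0.51 (adjusted p = 0.00287). Gpx1 (ENSMUSG00000063856, chromosome 9, 108338903 to 108340343, plus strand), the most abundant of the 9, had 974, 1325 and 1563 CPM in LPD livers and 1223, 1249 and 1327 CPM in SPD livers. Its log2 fold change was 0.040 ± 0.089 (95% interval -0.15 to 0.23, adjusted p = 0.751). The LPD livers spread to both sides of the SPD range, with 3 above it, among them replicate 5 at 1563 CPM, and 2 below it, replicate 4 at 974 CPM and replicate 6 at 1207 CPM. Without LPD replicate 5 the estimate changed sign (-0.019). Gpx1 counts were not whole numbers in all 12 libraries, by up to 0.44 of a count. The Gsr/Gpx1 ratio averaged -5.53 ± 0.28 in LPD and -4.92 ± 0.095 in SPD livers (log2, difference -0.61, exact permutation p = 0.00216, adjusted p = 0.00433), and all 6 LPD livers lay below all SPD livers.

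**Figure D3:**
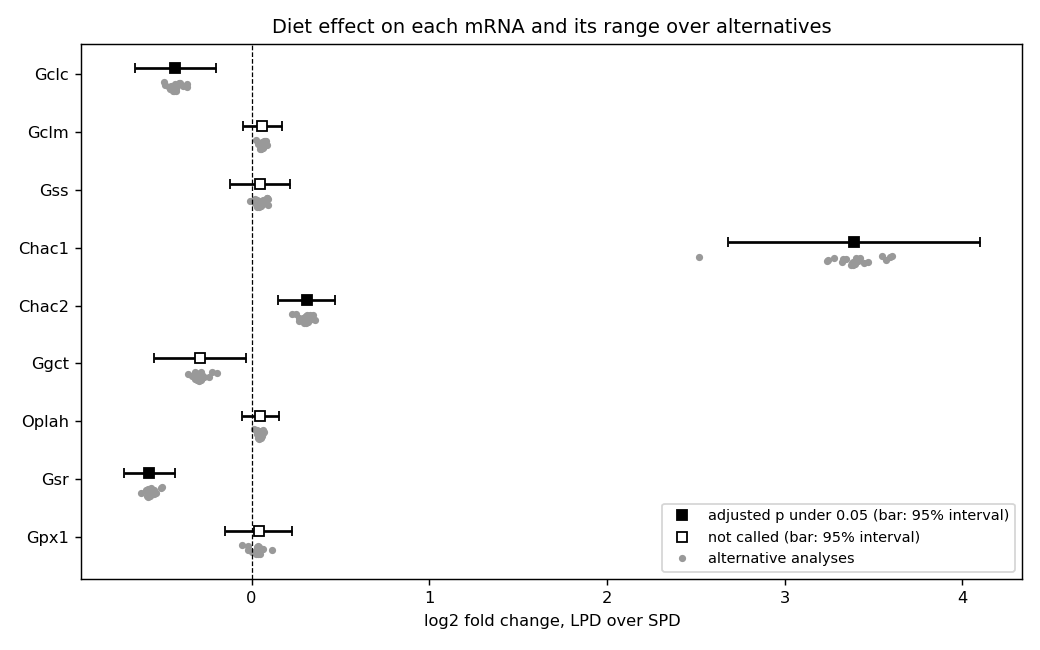
Log2 fold change (LPD over SPD) of each mRNA with its 95% interval, filled squares for called mRNAs and open squares for the rest. Grey points are the estimates of 22 alternative analyses. Chac1 stands at 3.39, Chac2 at 0.31, Gclc at -0.43 and Gsr at -0.58, and the Chac1 point near 2.52 is the analysis with LPD replicate 1 counted as SPD.

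Levels were compared between genes as CPM per kilobase of the deposited gene length. In LPD livers the order was Gpx1 (1208 ± 184), Gclm (205 ± 12.3), Gclc (82.6 ± 11.4), Gss (47.0 ± 3.28), Oplah (35.4 ± 1.55), Gsr (26.0 ± 2.65), Chac1 (15.3 ± 6.93), Chac2 (13.9 ± 1.66) and Ggct (1.61 ± 0.18) CPM per kilobase (SD, n = 6). There, Chac1 overlapped both of its neighbours, Gsr and Chac2. In SPD livers the first 4 were the same, Gpx1 (1175 ± 34.1), Gclm (197 ± 8.34), Gclc (111 ± 16.3) and Gss (45.5 ± 5.78), then Gsr (38.8 ± 2.31) stood above Oplah (34.2 ± 1.68), and by the deposited lengths Chac1 (1.47 ± 0.54) came after Chac2 (11.2 ± 0.34) and Ggct (1.97 ± 0.36) CPM per kilobase. In SPD livers Gsr overlapped Gss and Oplah, and Chac1 overlapped Ggct. The deposited length of Gclm is 1002 bases, against 6291 bases in the exons of GENCODE M21, and that of Gss is 1963 against 5915. By the GENCODE length Gclm had 32.7 CPM per kilobase in LPD and 31.3 in SPD livers, below Gclc (75.1 in LPD and 101 in SPD), so the order of Gclc and Gclm depends on the length used. Other places depend on it too. By the GENCODE length the order in LPD livers was Gpx1, Gclc, Gclm, Gsr, Oplah, Gss, Chac1, Chac2 and Ggct, and in SPD livers Gpx1, Gclc, Gsr, Gclm, Oplah, Gss, Chac2, Chac1 and Ggct. Ggct (0.826 in LPD and 1.01 CPM per kilobase in SPD livers) was then last in both diets, below Chac1 in SPD livers. By either length Gpx1 was first in both diets. The deposited and GENCODE lengths are equal for Chac1 and also for Chac2, so the order of these genes could not change. Chac1 overlapped Chac2 in LPD livers and was below it in SPD livers.

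The mRNAs whose profile lay nearest to that of Chac1 were Trib3, Fgf21, Gadd45a, Pcp4l1 and Prok1, in that order. Nearness is the root mean square difference over the 12 livers between log2 CPM profiles, each taken relative to its SPD mean, and was 0.48 for Trib3, 0.66 for Fgf21, 0.67 for Gadd45a, 0.68 for Pcp4l1 and 0.72 for Prok1, in log2 units. Trib3, a pseudokinase, had 30.5 CPM in LPD replicate 5 and 89.6 CPM in LPD replicate 4, the same lowest and highest LPD livers as Chac1. For Fgf21, a secreted hormone, LPD replicate 4 was also highest, at 213 CPM, but LPD replicate 3 was lowest at 51.9 CPM, with replicate 5 next at 56.8 CPM. Among SPD livers, replicate 6 had the least Fgf21 (10.7 CPM) but the most Chac1 (3.997 CPM). Pcp4l1 ran the other way among LPD livers, with its highest level in replicate 5 (26.7 CPM) and its lowest in replicate 4 (16.5 CPM), so its nearness rests on the size of its rise. Size counts for the others too, since this measure holds the rise as well as the pattern between livers. By size of rise the 5 genes ranked 13, 10, 14, 7 and 2 among all tested genes, in the order named. Gadd45a was highest in LPD replicate 2 (52.3 CPM) and lowest in LPD replicate 3 (23.4 CPM). Prok1 was highest in LPD replicate 4 (3.13 CPM) and lowest in LPD replicate 5 (1.40 CPM) of the LPD livers, as Chac1 was, but was scarce, with no count in 2 SPD livers.

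**Figure D4:**
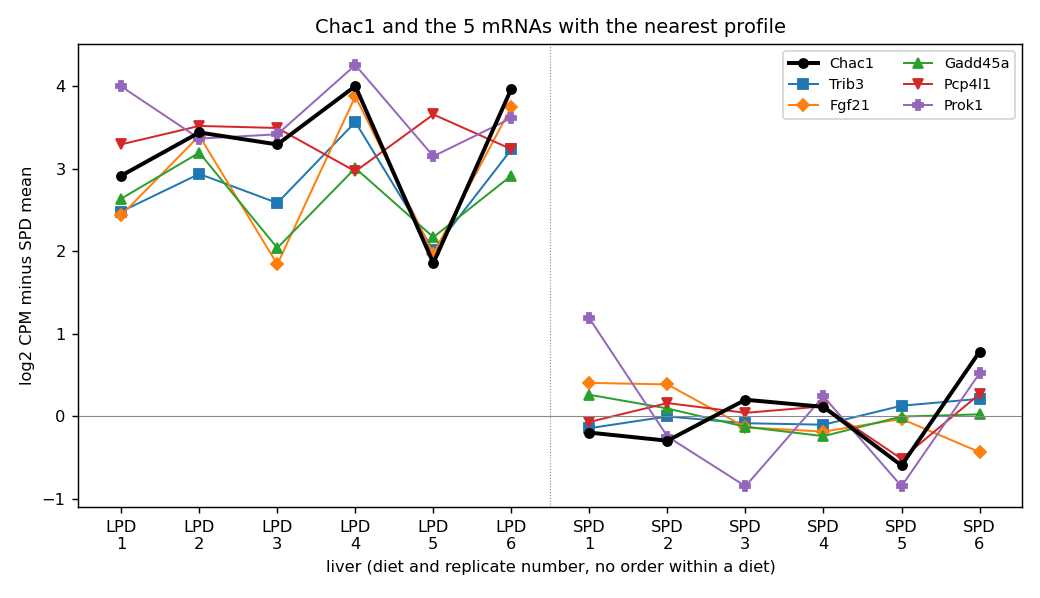
Log2 CPM relative to the SPD mean, for Chac1 (thick black line) and the 5 mRNAs with the nearest profile, in each LPD liver (left) and SPD liver (right). Lines join the livers of a diet only to aid the eye. Chac1, Trib3, Fgf21 and Prok1 are highest in LPD replicate 4, and Chac1, Trib3 and Prok1 are lowest in LPD replicate 5 among LPD livers, while Gadd45a is highest in LPD replicate 2 and Pcp4l1 in LPD replicate 5.

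The surrounding genes were read in 8 lists covering 76 genes, of which 72 were tested: 22 were higher, 26 lower and 24 did not pass. Over all tested genes 20.7% were higher and 19.2% lower, shares against which each list below may be read. The median log2 fold change was -0.085 in the lists together and -0.00059 over all tested genes. Of 12 genes of the ATF4 branch 8 rose and 2 fell (median 1.09), against 20.7% risen and 19.2% fallen over all tested genes. Chac1, itself a known target of ATF4, is not counted in that list. Atf5 had 469 ± 25.9 CPM in LPD and 187 ± 19.8 CPM in SPD livers (log2 fold change 1.33 ± 0.071, adjusted p = 1.44e-08), and Sesn2, a sestrin, 37.7 ± 11.6 and 14.5 ± 1.52 CPM (1.38 ± 0.18). Trib3 was among the 8 as well (2.90 ± 0.22). Asns and Ddit3, chosen after their values were seen, rose by 1.70 ± 0.25 and 1.36 ± 0.26 on the log2 scale, and Atf4 by 0.46 ± 0.15. The kinases Eif2ak3 (PERK, -0.29 ± 0.086) and Eif2ak4 (GCN2, -0.27 ± 0.086), which switch this branch on by phosphorylating eIF2 alpha, were the 2 mRNAs that fell, also chosen after their values were seen. The call of Eif2ak4 was lost in 5 of 22 alternatives, among them those without SPD replicate 1 (adjusted p = 0.0548) or SPD replicate 4 (0.0501) and without LPD replicates 2 and 5 (0.0804). In the LP4 and SP1 libraries alone the calls of Eif2ak3 (0.216) and Atf4 (0.0931) were lost, that of Atf4 also with limma-voom (0.0681). Cebpb did not pass (0.61 ± 0.35, adjusted p = 0.174), and its estimate was negative with LPD replicate 1 counted as SPD (-0.12).

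Genes of cysteine supply went both ways, with 3 of 7 tested risen, 2 fallen and 2 not past, against 20.7% risen and 19.2% fallen over all tested genes. Slc3a2, the heavy chain shared by several amino acid exchangers, had 94.9 ± 10.2 CPM in LPD and 48.9 ± 4.24 CPM in SPD livers (0.96 ± 0.077, adjusted p = 3.70e-07), and the methionine cycle enzymes Mat1a (0.53 ± 0.093) and Ahcy (0.54 ± 0.10) rose too. Slc7a11, the light chain that makes the cystine importer, was scarce at 0.662 CPM in LPD and 1.73 CPM in SPD livers and fell (-1.38 ± 0.42, adjusted p = 0.0158), and Slc1a4 fell by 0.47 ± 0.15, both chosen after their values were seen. The Slc7a11 call was lost without LPD replicates 2 and 5 (adjusted p = 0.0533), with limma-voom (0.0562) and in the LP4 and SP1 libraries alone (0.153). That of Slc1a4 was lost without LPD replicates 2 and 5 (0.105), without SPD replicate 6 (0.0564), with LPD replicate 1 moved to SPD (0.123) and in the LP4 and SP1 libraries alone (0.0804). Of the transsulfuration enzymes that make cysteine from homocysteine, Cbs had 209 ± 19.4 CPM in LPD and 217 ± 32.4 CPM in SPD livers and did not pass (-0.057 ± 0.091, adjusted p = 0.651), nor did Cth, chosen after its value was seen (0.47 ± 0.18, adjusted p = 0.0534). Cth was called in 6 of 22 alternatives, among them limma-voom (0.0249), the replicate block (0.0277) and without SPD replicate 3 (0.69, adjusted p = 0.000883).

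Of 8 genes that dispose of cysteine and sulfide, 5 rose and 1 fell (median 0.30), and the other 2 were not called. Over all tested genes 20.7% rose and 19.2% fell. Cdo1, the dioxygenase that commits cysteine to oxidation, had 1374 ± 128 CPM in LPD and 765 ± 116 CPM in SPD livers (0.85 ± 0.098, adjusted p = 1.05e-05), with no overlap. Tst, a thiosulfate sulfurtransferase, rose by 0.49 ± 0.077, and Csad, of taurine synthesis, by 0.78 ± 0.18, the last chosen after its value was seen and not called with LPD replicate 1 moved to SPD (adjusted p = 0.0975). Ethe1, the persulfide dioxygenase, fell (-0.72 ± 0.089), and the sulfide oxidoreductase Sqor did not pass (-0.16 ± 0.069, adjusted p = 0.0708), though it was called in 4 of 22 alternatives, among them that without LPD replicate 5 (-0.21, adjusted p = 0.0148).

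Among 13 tested genes of the glutathione peroxidase family and other thiol enzymes, 2 rose, 4 fell and 7 did not pass, which is near the 39.9% called over all tested genes. Of the other peroxidases, Gpx4, which reduces lipid peroxides in membranes, had 362 ± 41.4 CPM in LPD and 570.1 ± 35.0 CPM in SPD livers (-0.65 ± 0.075, adjusted p = 9.45e-06), and Gpx3, a secreted peroxidase, 13.4 ± 4.71 and 36.3 ± 2.88 CPM (-1.43 ± 0.18, adjusted p = 2.38e-05), and both fell. Hagh, the second glyoxalase, rose (0.30 ± 0.086), a call lost without LPD replicates 2 and 5 (adjusted p = 0.0658) and in the LP4 and SP1 libraries alone (0.118), and Prdx6 did not pass (0.075 ± 0.057). Gpx7 (-0.76 ± 0.25), Esd (-0.21 ± 0.066) and Glrx2 (0.20 ± 0.058) complete the called genes and were chosen after their values were seen. Of 22 alternatives, 6 lost the call of Gpx7, among them those without LPD replicate 3 or 5 or SPD replicate 5 or 6 (adjusted p from 0.0503 to 0.0560). The call of Glrx2 was lost in 3, with LPD replicates 2 and 5 left out (0.0679), with LPD replicate 1 moved to SPD (0.0789) and in the LP4 and SP1 libraries alone (0.0623), and that of Esd with LPD replicate 1 moved to SPD (0.107). Of 7 tested transferases and peptidases that break glutathione down outside the cell or cleave its products, 1 rose, Anpep (0.28 ± 0.057), 1 fell, Cndp2 (-0.45 ± 0.061), and 5 did not pass, among them Lap3 (-0.10 ± 0.056, adjusted p = 0.164, but called at 0.0293 without LPD replicates 2 and 5). Ggt1 and Ggt7, gamma-glutamyl transferases, had too few counts to be tested.

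The list for supply of NADPH, which Gsr needs, held 6 fallen mRNAs of 7 (median -0.75), against 19.2% fallen over all tested genes. It holds 5 enzymes that make NADPH, of which 4 fell, and the pentose phosphate enzymes Taldo1 and Tkt, which make none themselves and fell too. Me1, malic enzyme, had 343 ± 16.5 CPM in LPD and 1335 ± 387 CPM in SPD livers (-1.96 ± 0.16, adjusted p = 4.67e-07), Pgd 70.9 ± 10.3 and 228 ± 44.0 CPM (-1.68 ± 0.13), and Taldo1 fell by 0.67 ± 0.066. Idh2, the mitochondrial isocitrate dehydrogenase, did not pass (-0.038 ± 0.052, adjusted p = 0.598). Of 9 transport genes 1 rose, 5 fell and 3 did not pass, against 20.7% risen and 19.2% fallen over all tested genes. Slc25a39, the importer of glutathione into mitochondria, rose (475 ± 23.8 CPM in LPD and 367 ± 24.4 CPM in SPD livers, 0.37 ± 0.058, adjusted p = 1.35e-04), while its relative Slc25a40 fell (-0.38 ± 0.095), chosen after its value was seen and not called with LPD replicate 1 moved to SPD (adjusted p = 0.0759). Another of the 5, Slc25a11 (-0.15 ± 0.050, adjusted p = 0.0299), chosen after its value was seen, lost its call in 11 of 22 alternatives. The export pump of the bile canaliculus, Abcc2, fell (-0.33 ± 0.062), as did the carrier Slc25a10 (-0.27 ± 0.060), and Abcc3 did not pass (0.17 ± 0.075, adjusted p = 0.0834), but was called without LPD replicate 4 (0.0375).

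Of 9 genes of the NRF2 axis 2 rose and 5 fell (median -0.24), and 2 were not called. The shares over all tested genes were 20.7% risen and 19.2% fallen. Nfe2l2, which encodes NRF2, had 67.0 ± 4.91 CPM in LPD and 95.1 ± 10.8 CPM in SPD livers (-0.50 ± 0.075, adjusted p = 9.41e-05), and Srxn1, sulfiredoxin, 88.4 ± 16.4 and 201 ± 23.9 CPM (-1.18 ± 0.11, adjusted p = 1.55e-06), with no overlap between diets for either. Bach1, a repressor that competes for the same elements, rose (50.9 ± 5.70 and 31.5 ± 1.16 CPM, 0.69 ± 0.068), as did Mafg, named after its value was seen (0.47 ± 0.091). Keap1, the sensor that holds NRF2 back, did not pass (-0.012 ± 0.059, adjusted p = 0.892). All adjusted p in these paragraphs are from edgeR over all tested genes, and values with an SE that stand behind a gene are log2 fold changes of LPD over SPD, from 6 livers of each diet.

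**Figure D5:**
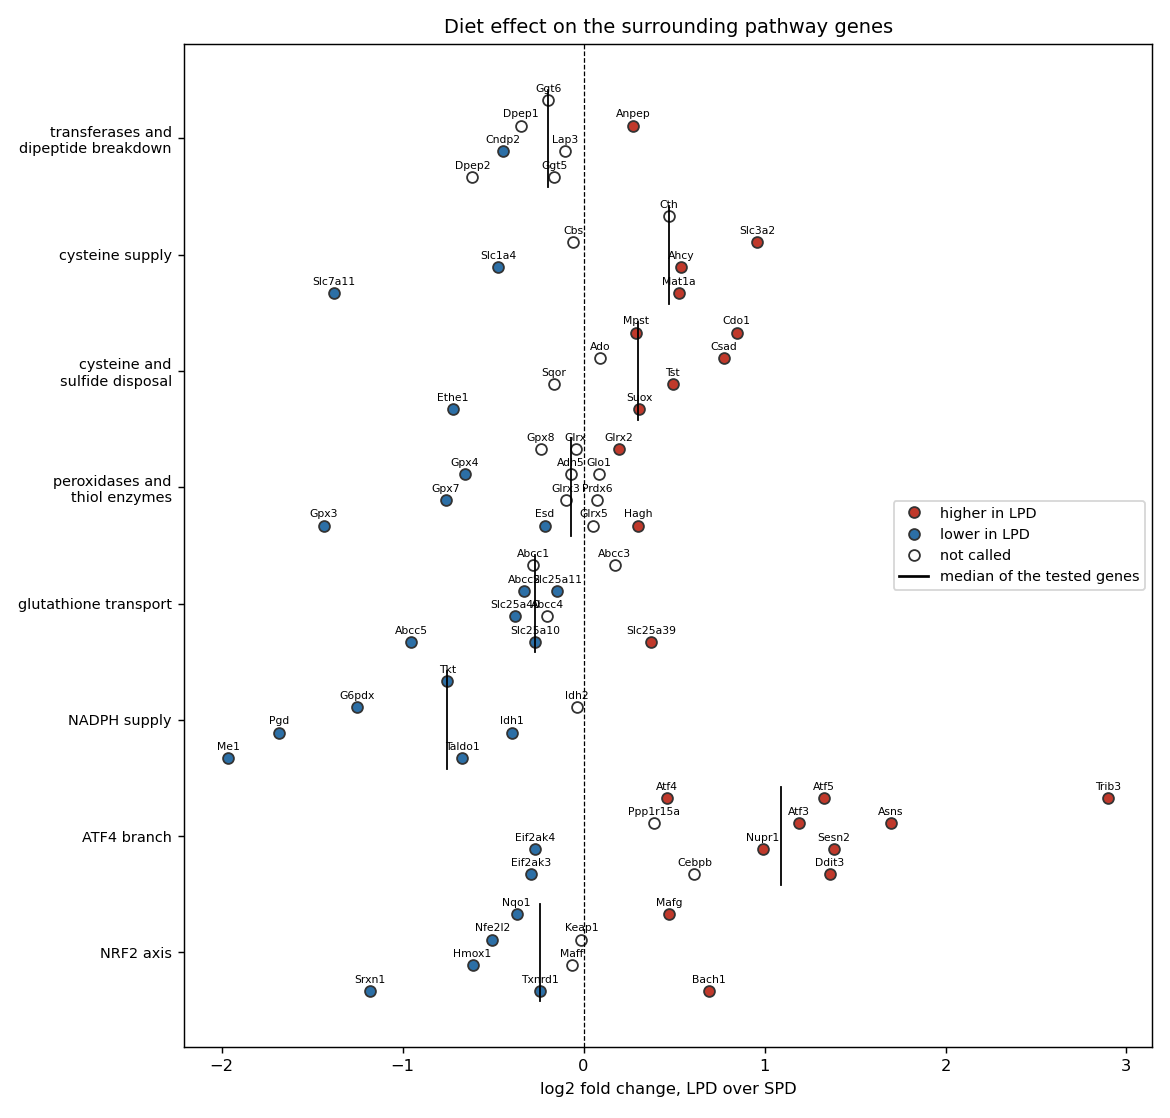
Log2 fold change (LPD over SPD) of the tested genes of 8 lists around glutathione metabolism, 1 point per gene, red for higher, blue for lower and white for not called, with vertical lines at the medians. The ATF4 branch has a median of 1.09 with Trib3 at 2.90, and the NADPH supply list a median of -0.75 with Me1 at -1.96.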

How the data were processed

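Bulk RNA sequencing of 12 livers was deposited as 1 matrix of expected counts per gene and library, and these estimated counts, deposited unscaled, sum to 19374676 to 23710930 per library. TopHat, DESeq2 and mm10 are named in the submitters' processing notes, without role or version; no source used here gives the counting program, annotation or strand handling. Livers were snap-frozen and RNA was extracted with TRIzol, per the labels' protocols. The deposited length column was used only for levels per kilobase.

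Counts were rounded and fitted in R 4.3.3 with edgeR 4.0.16 (filterByExpr with minimum count 10 and minimum total 15, TMM scaling, quasi-likelihood F test, LPD against SPD, no further term). The fit was tested on simulated data. Alternatives used limma 3.58.1 and DESeq2 1.42.0, other scalings and filters, a replicate block and libraries left out. Ratios used a pseudocount of 0.5 counts. The SE was obtained from F and the log2 fold change. Intervals and p-values from edgeR set the diet difference against the variation between these livers, estimated with information shared across genes. The p-values of the ratios come from exchanging diet labels between livers. No pair of livers in a diet had counts as alike as sampling noise gives. Promoter windows are RefSeq's (GRCm38.p6) and coordinates GENCODE M21's. Genes and lists were chosen with earlier results of these data known. From each list the text names up to 3 called genes with the smallest adjusted p and the most abundant one not called, and the 5 nearest profiles to Chac1; others are said to be chosen after their values were seen.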

Additional observations from a re-analysis of the deposited data

Results flagged for a closer look

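The check for livers standing apart covered 44 genes: the 9 glutathione genes, those named by rule from the lists and the 5 nearest to Chac1. Genes chosen after their values were seen and cell type markers were not checked. Of the 88 groups of 6 livers (44 genes in 2 diets), 1 had a liver standing apart from the others of its diet. The measure was the gap between a liver and its nearest neighbour, where chance flags about 1 in 20. For Bach1, SPD replicate 2 was the highest SPD liver at 33.6 CPM, and its gap to the next liver was 0.64 of the SPD range. No liver stood apart in this way for any of the 9 glutathione genes.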

How the results depend on the processing

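The calls of Chac1, Gclc and Gsr kept their direction and passed in all 22 alternatives, over ranges of 2.52 to 3.61, -0.49 to -0.37 and -0.62 to -0.51 on the log2 scale. In the 4 libraries per diet with codes LP4 and SP1 alone, 1827 genes were called higher and 1693 lower with fewer samples, Chac2 was not called (0.25), and the log2 ratios Chac1/Chac2 (3.25), Gclc/Gclm (-0.48), Gss/Gclc (0.50) and Gsr/Gpx1 (-0.54) missed the threshold after adjustment, where 4 livers against 4 allow few labelings. There, Gpx1 changed sign (-0.018) and Keap1 too (0.062). Without both LPD replicates 2 and 5, Gpx1 was at -0.055, and with LPD replicate 1 counted as SPD Cebpb was at -0.12; the cause was not tested. Leaving out each liver in turn gave -0.36 to -0.20 for Ggct, -0.010 to 0.094 for Gss, -0.019 to 0.11 for Gpx1, -0.039 to 0.017 for Keap1 and -0.095 to 0.025 for Cbs, of which Ggct was called without SPD replicate 3. Ggct was also called by limma-voom (-0.32).

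Replicate numbers did not pair the livers: same-numbered livers had correlations of their deviations from -0.054 to 0.097, and 1 of 6 LPD livers correlated best with its own number. With the replicate number as a block, 2668 genes were called higher and 2562 lower, and Ggct was called (-0.28, adjusted p = 0.0412). Of 1144 values of 52 other named genes over the alternatives, 1083 kept their direction and side of the threshold. The median log2 fold change over all tested genes was -0.0068 with DESeq2 size factors and -0.015 with upper quartile scaling, against -0.00059 with TMM. The scarce Slc7a11 and Prok1 rest on few counts, and Ggt1 and Ggt7 had too few to be tested.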

Other observations

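Chac1 varied among LPD livers, and its relation to the other genes within each diet was computed after the values had been seen. Over the 6 LPD livers log2 CPM of Chac1 and Gclc had a Pearson r of -0.79 (exact permutation p = 0.0486) and a Spearman rho of -0.94 (exact permutation p = 0.0167). None of the 16 relations computed between Chac1 and the other genes within a diet passed the adjustment, and the smallest adjusted p were 0.319 for r and 0.233 for rho. Without LPD replicates 4 and 5, the livers farthest from the median of Chac1, r for Gclc was -0.85 over the remaining 4 livers. For Gclm, r was -0.80 over 6 LPD livers (exact permutation p = 0.0458, rho = -0.83 with p = 0.0583) and -0.25 without those livers, so it rests on them. For Gpx1, r was -0.81 (exact permutation p = 0.0597, rho = -0.83 with p = 0.0583) and -0.53 without them. Over the 6 SPD livers the r between Chac1 and Gclc was -0.19 (exact permutation p = 0.736, rho = -0.43 with p = 0.419) and -0.18 without SPD replicates 5 and 6. No p was computed for r over 4 livers, and such values swing widely. For Chac2, r went from -0.27 to 0.84 in LPD livers and from -0.12 to 0.87 in SPD livers with the same livers left out. The r of -0.85 for Gclc over 4 livers therefore does not show that this relation holds without LPD replicates 4 and 5.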
